A study of Homo sapiens with 24 samples.

Results

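The response of H2009 cells to PKCδ depletion was read from 6 of the 24 arrays of the series, the 3 labelled as H2009 knock-down and the 3 labelled as H2009 Scrambled. H2009 is an established non-small cell lung cancer line with mutant K-ras and is one of the pair of lines, with H441, that the study classes as K-ras dependent; A549 and H460 make up the K-ras independent class. The knock-down cells expressed δ193, a short hairpin RNA against the coding region of PKCδ, and the Scrambled cells expressed δscr, a hairpin with a scrambled sequence. Both hairpins were delivered by lentivirus, and the transduced cells of both groups were kept in medium with serum and under puromycin selection, so these are stable depletions and not acute ones. RNA of 3 biological replicates per group was hybridized to Affymetrix Human Gene 1.0 ST arrays, and all values below are on the log2 scale of the deposited data unless a fold is named. The arrays held a single hairpin against PKCδ, so what its sequence did to other transcripts and what PKCδ loss did cannot be told apart.

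PKCδ, the product of PRKCD, is a serine/threonine kinase that is switched on by diacylglycerol without a need for calcium. It is known for its part in apoptosis of damaged cells, and in other settings for its part in the growth, survival and migration of tumor cells. K-ras is a small GTPase whose mutant form signals to the MAP kinases and to PI3 kinase without pause, and K-ras dependent lines are those that die when it is removed.

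PRKCD itself was examined first, since it checks the labels. Its log2 value was 5.96, 5.95 and 5.86 on the δ193 arrays, against 8.20, 8.21 and 8.11 on the δscr arrays. The groups were far apart and the 3 arrays of each lay within a narrow band. The change was -2.25 (standard error 0.20, 95% confidence interval -2.67 to -1.83), a 4.76-fold decrease with an adjusted p of 1.7e-07 from limma. The difference from the mean change in the other lines did not pass the test in limma (-0.35, standard error 0.23, adjusted p = 0.54). Of 11 measured protein kinase C and D isoforms, 1 other member was called. PRKD1, protein kinase D1, which PKC enzymes phosphorylate and activate, had 7.67, 7.75 and 7.74 on the δ193 arrays, against 7.05, 6.92 and 7.07 on the δscr arrays. It rose by 0.71 (adjusted p = 5.83e-06), and this was 0.42 above the mean change of the other lines (adjusted p = 0.0084). PRKCA, the classical isoform PKCα, averaged 8.32 in δ193 cells and 8.40 in δscr cells and was not called.

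The arrays of the 6 samples were close to each other. Pearson correlations across genes were 0.9949 to 0.9965 within a group and 0.9907 to 0.9937 between the groups, and the first principal component, with 43.9% of the variance, set the 3 δ193 arrays on one side and the 3 δscr arrays on the other. The epithelial markers EPCAM, CDH1, KRT7, KRT8, KRT18 and KRT19 all lay between 10.7 and 11.8 in both groups, among the most abundant transcripts on the arrays. The lung lineage markers were low, with NKX2-1 at a mean of 5.06 in δ193 cells and 5.55 in δscr cells and SFTPB at 4.13 and 3.80, and neither was called. PTPRC, the pan-leukocyte marker, had 2.75 in δ193 cells and 2.78 in δscr cells, near the bottom of the scale. The 21 measured immune markers summed to 94.6 to 95.7 on the δ193 arrays and 95.1 to 97.0 on the δscr arrays.

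PKCδ depletion changed 904 genes in H2009 cells, 4.91% of the 18417 tested. A gene was called when its adjusted p in limma was under 0.05 and its change was at least 0.322 in size on the log2 scale. Of these, 414 genes were lower with δ193 (2.25% of genes tested) and 490 were higher (2.66%). With the array medians set equal the split was 526 lower and 366 higher, and the share of higher genes among those called was then 41%, against 54.2% with the values as deposited, so the balance of the directions depended on how the arrays were centred. The count of lower genes was 220 without δscr replicate 1, 243 without δ193 replicate 2 and 265 without δ193 replicate 3, and that of higher genes was 321 without δ193 replicate 1. Most changes were small. The median fold of the called genes was 1.43, and 51 genes changed at least 2-fold, 24 of them lower and 27 higher. The δ193 and δscr arrays did not overlap for 893 of the 904 called genes, and this was true of 25.9% of all genes tested. The median change over all genes was 0.01, and the median standard error was 0.12. RNA was measured from whole cultures, so a lower value can come from fewer cells that express a gene or from less RNA per cell, and these cannot be told apart.

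**Figure D1:**
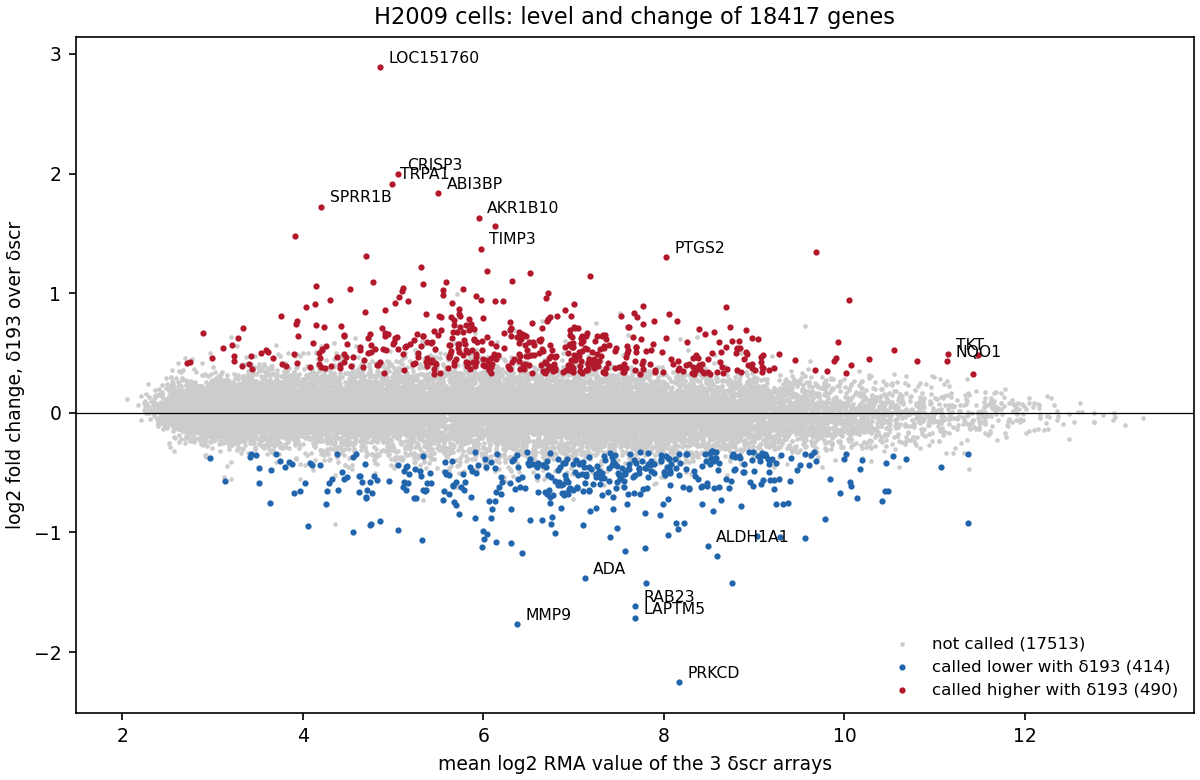
Each point is 1 of 18417 genes in H2009 cells, placed by its mean log2 RMA value on the 3 δscr arrays (horizontal axis) and by its log2 fold change, δ193 over δscr (vertical axis). Blue points are the 414 genes called lower and red points the 490 called higher; PRKCD is the lowest point at -2.25 and LOC151760 the highest at 2.89.

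MMP9, LAPTM5 and RAB23 fell furthest after PRKCD among the genes whose arrays did not overlap. MMP9, a secreted gelatinase that digests basement membrane collagen, had 4.89, 4.41 and 4.53 on the δ193 arrays, against 6.07, 6.33 and 6.72 on the δscr arrays, a change of -1.77 (adjusted p = 4.88e-08). LAPTM5, a lysosomal membrane protein best known from blood cells, had 6.35, 5.84 and 5.72 on the δ193 arrays, against 7.71, 7.65 and 7.69 on the δscr arrays (-1.71, adjusted p = 1.5e-05). RAB23, a GTPase that restrains Hedgehog signaling, had 6.24, 5.93 and 6.02 with δ193, against 7.85, 7.58 and 7.61 with δscr (-1.62, adjusted p = 3.04e-09). For each of these genes the highest δ193 array lay more than 1 log2 unit below the lowest δscr array. ADA, adenosine deaminase, had 5.86, 5.54 and 5.83 with δ193, against 7.20, 6.95 and 7.23 with δscr (-1.38, adjusted p = 9.02e-08). LHFPL6, a tetraspan membrane protein, fell by 1.42 (adjusted p = 2.13e-07) and TSPAN5, a tetraspanin, fell by 1.16 (adjusted p = 6.66e-06). DKK1, a secreted inhibitor of Wnt signaling, had 8.25, 8.24 and 8.25 with δ193, against 9.40, 9.19 and 9.25 with δscr, a difference many times the spread of either group (-1.04, adjusted p = 7.2e-07). PTX3, a secreted pentraxin of innate immunity, fell by 1.04 (adjusted p = 0.0027), HOOK1, which links cargo to microtubules, fell by 1.06 (adjusted p = 9.42e-07), ALDH1A1, which makes retinoic acid, fell by 1.11 (adjusted p = 6.99e-08) and H2BC3, a histone H2B gene, fell by 1.13 (adjusted p = 0.000219). ACBD7, an acyl-CoA-binding protein, fell by 1.12 (adjusted p = 0.000122). MTND2P28, a nuclear copy of a mitochondrial gene, had a change of -1.42 (adjusted p = 0.0407) with arrays that overlapped, at 6.56, 5.81 and 6.78 with δ193 and 9.11, 6.26 and 8.04 with δscr, and was the called gene with the largest change of which this was true.

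The largest increase was in a transcript with no protein product. LOC151760, annotated as a long non-coding RNA, had 7.68, 7.85 and 7.71 on the δ193 arrays, against 4.82, 4.87 and 4.89 on the δscr arrays, a 7.39-fold rise (2.89, standard error 0.20, adjusted p = 2.02e-09). CRISP3, a cysteine-rich protein of secretions, had 7.21, 7.06 and 6.91 with δ193, against 5.19, 5.08 and 4.91 with δscr (2.0, adjusted p = 2.02e-09). TRPA1, an ion channel gated by irritant electrophiles, had 7.10, 6.84 and 6.76 with δ193, against 5.13, 4.85 and 4.98 with δscr (1.92, adjusted p = 6.8e-07). For all 3 the spread among the arrays of a group was a small part of the distance between the groups. ABI3BP, a matrix protein that binds collagen, rose by 1.84 (adjusted p = 1.12e-07) and TSPAN8, a tetraspanin of secretory epithelia, by 1.56 (adjusted p = 3.28e-07). TIMP3, the matrix-bound inhibitor of metalloproteinases, had 7.37, 7.28 and 7.39 with δ193, against 6.05, 6.04 and 5.83 with δscr (1.37, adjusted p = 2.02e-09), so that MMP9 and this inhibitor moved in opposite directions. The gene of the actin bundler plastin-2, LCP1, was already abundant and had 11.06, 10.99 and 11.03 with δ193, against 9.72, 9.72 and 9.61 with δscr (1.34, adjusted p = 2.02e-09). PTGS2, the inducible cyclooxygenase that makes prostaglandin precursors, had 9.21, 9.42 and 9.34 with δ193, against 8.10, 8.15 and 7.82 with δscr (1.30, adjusted p = 0.0076). CLU, the extracellular chaperone clusterin, rose by 1.17 (adjusted p = 3.08e-09), SERPINB9, the inhibitor of granzyme B, by 1.10 (adjusted p = 1.39e-05), MAPRE3, a protein of microtubule ends, by 1.18 (adjusted p = 7.11e-05), and TNFSF15, a cytokine of the TNF family, by 1.07 (adjusted p = 4.65e-05). DYNLRB1, a light chain of the dynein motor, rose by 1.14 (adjusted p = 0.000396).

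**Figure D2:**
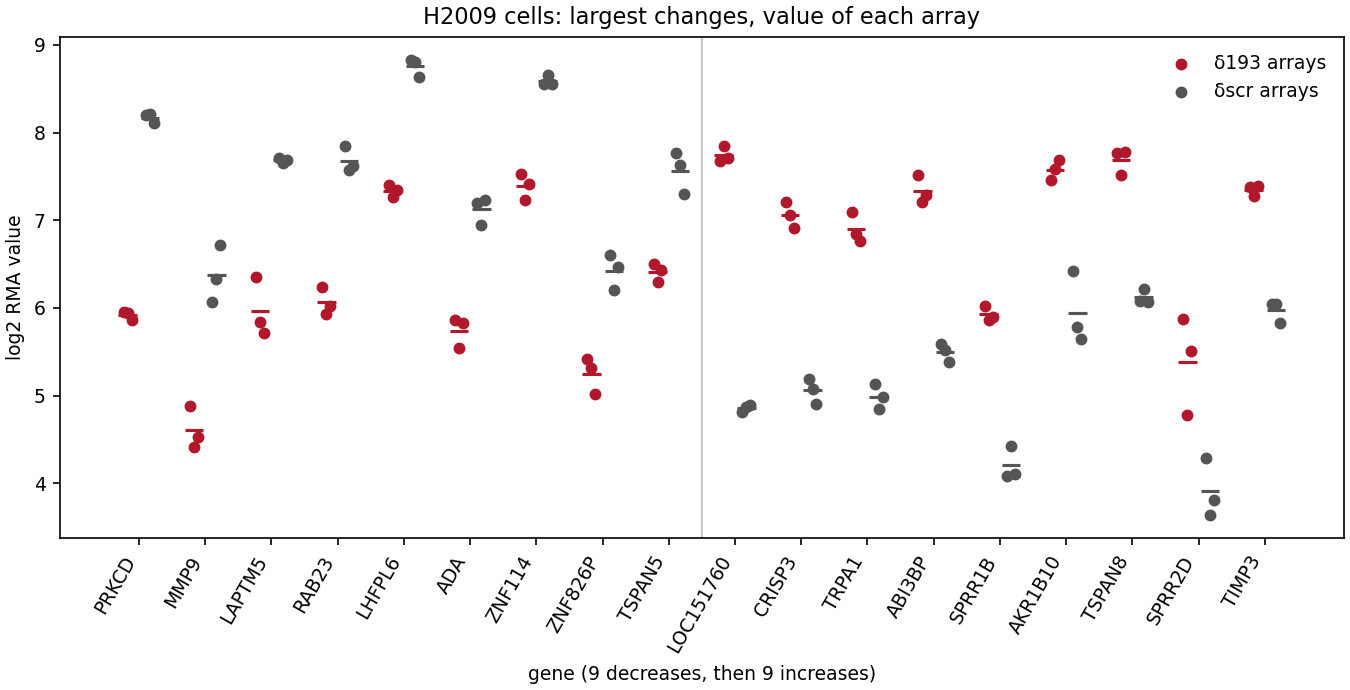
Log2 RMA value (vertical axis) of each H2009 array for the 9 largest decreases and the 9 largest increases among called genes without overlap (horizontal axis), with δ193 arrays in red, δscr arrays in grey to their right and a bar at each group mean. The nearest pair of groups is that of SPRR2D, whose lowest δ193 array has 4.77 and whose highest δscr array has 4.29.

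Most members of a family of neighbouring genes for proteins of the squamous cell envelope were higher. The small proline-rich proteins, encoded by the SPRR genes, are cross-linked into the tough envelope that squamous epithelia build as they mature, and airway epithelium makes them under stress. Of 10 measured SPRR genes, 7 were called higher, where 2.66% of all genes were, the other 3 also lay above 0, and the median change was 0.69. Of these genes SPRR1A, SPRR1B, SPRR2A and SPRR3 were on a list of squamous markers, and the family was widened to the others after their values were seen. SPRR1B had 6.02, 5.87 and 5.90 on the δ193 arrays, against 4.09, 4.43 and 4.11 on the δscr arrays (1.72, adjusted p = 9.42e-07). SPRR2D had 5.87, 4.77 and 5.51 with δ193, against 4.29, 3.63 and 3.81 with δscr (1.47, adjusted p = 2.37e-05). SPRR3 had 6.21, 6.13 and 5.69 with δ193, against 4.63, 4.95 and 4.52 with δscr (1.31, adjusted p = 2.42e-06). The δ193 arrays were the higher ones in each, from a δscr level below the median gene. SPRR1A rose by 1.22 (adjusted p = 1.74e-05), SPRR2A by 0.71 (adjusted p = 0.00325), SPRR2E by 0.67 (adjusted p = 0.00935) and SPRR2F by 0.43 (adjusted p = 0.0189). SPRR2G (0.45, adjusted p = 0.0555), SPRR2B (0.63, adjusted p = 0.13) and SPRR4 (0.19, adjusted p = 0.545) were not called. The SPRR2 genes are close copies of each other, so their probe sets may share transcripts. No gene of the squamous list outside the SPRR family was called higher. KRT5, a basal cell keratin, had 4.62 in δ193 cells and 4.55 in δscr cells, and SOX2, a transcription factor of squamous and stem cells, fell by 0.51 (adjusted p = 0.0411). Of 17 measured late cornified envelope genes, which lie in the same gene complex, limma called none; 3 had an unadjusted p under 0.05, the methods' t-test gave 1, and the changes ran from -0.14 in LCE2A to 0.43 in LCE3A.

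The promoters of the SPRR genes are shown because members of the family moved together, and because SPRR promoters are textbook targets of AP-1, the JUN and FOS factor that binds the letters TGACTCA. RefSeq promoter windows of GRCh38.p14, 250 bases before to 50 after the start of transcription, were found for 8 of the 10 genes. The 7 letters were present on either strand in 5 of these 8 windows, those of SPRR1A, SPRR1B, SPRR2A, SPRR2F and SPRR3, and in 3.98% of the 20109 windows of all measured genes, of which some had several. All 5 of these genes were called higher, and the other 3 with a window, SPRR2B, SPRR2G and SPRR4, were not called. The sizes of the changes did not split in this way, since SPRR2B and SPRR2G rose by at least as much as SPRR2F. SPRR2D and SPRR2E, both called higher, had no window. The whole windows of SPRR1A and SPRR2A, with the AP-1 letters and the TATA box (TATAAA) in capitals, 5′ to 3′ along the gene, are given first. TATAAA was present on either strand in 7 of the 8 SPRR windows and in 9.06% of all windows.
SPRR1A chr1:152983831-152984130, plus strand: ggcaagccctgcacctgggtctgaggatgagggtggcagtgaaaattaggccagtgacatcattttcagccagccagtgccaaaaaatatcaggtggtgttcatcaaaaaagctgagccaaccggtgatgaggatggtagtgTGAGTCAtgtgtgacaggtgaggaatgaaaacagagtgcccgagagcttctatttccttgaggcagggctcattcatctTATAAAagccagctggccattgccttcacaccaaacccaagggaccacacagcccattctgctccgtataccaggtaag
SPRR2A chr1:153057463-153057762, minus strand: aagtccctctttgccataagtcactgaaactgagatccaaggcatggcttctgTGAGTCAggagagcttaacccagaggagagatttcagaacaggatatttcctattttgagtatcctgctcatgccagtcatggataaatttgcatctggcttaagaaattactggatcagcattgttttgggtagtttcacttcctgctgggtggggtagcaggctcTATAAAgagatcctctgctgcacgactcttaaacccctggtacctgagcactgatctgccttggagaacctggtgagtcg
The stretches around the same letters in SPRR1B, SPRR3 and SPRR2F, which lie 141, 170 and 196 bases before the start, follow with the AP-1 letters in capitals.
SPRR1B chr1:153031036-153031094, plus strand: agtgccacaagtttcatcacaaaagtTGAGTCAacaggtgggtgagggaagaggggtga
SPRR3 chr1:153001553-153001611, plus strand: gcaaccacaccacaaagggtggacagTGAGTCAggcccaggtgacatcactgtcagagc
SPRR2F chr1:153113680-153113738, minus strand: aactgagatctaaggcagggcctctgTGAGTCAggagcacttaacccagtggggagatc
A match of letters is a description and not a measured binding site. Of 21 measured immediate early genes, which include the AP-1 genes themselves, 1 was called, JUND, a share near the 4.91% of all genes. It had 7.09, 7.09 and 6.96 with δ193, against 6.55, 6.55 and 6.59 with δscr (0.48, adjusted p = 0.0064). JUNB, which had 7.47 in δ193 cells and 7.99 in δscr cells, was not called (adjusted p = 0.0655).

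Genes of the NRF2 program, which makes enzymes that detoxify electrophiles and supply NADPH and glutathione, were on balance higher in δ193 cells. Of 30 measured members of a list of NRF2 targets, 9 were called and all 9 were higher, where 2.66% of all genes were. In δscr cells 29 of the 30 lay above the median gene. Called genes were also more abundant, with a median δscr value of 6.86, against 5.76 over all genes. The 2.66% is thus a share over genes of lower abundance than the list. The median change of the 30 was 0.24, against 0.01 over all genes. Without the adjustment 20 of the 30 had a p under 0.05 in limma, all of them higher, and the methods' t-test gave 18 higher and 3 lower. AKR1B10, an aldo-keto reductase that clears aldehydes, had 7.46, 7.58 and 7.69 on the δ193 arrays, against 6.42, 5.78 and 5.64 on the δscr arrays, and rose 3.10-fold (1.63, adjusted p = 9.06e-08). AKR1C3, a further reductase, had 9.44, 9.36 and 9.28 with δ193, against 8.69, 8.84 and 8.75 with δscr (0.60, adjusted p = 2.2e-05). The remaining calls were smaller, and in each the δ193 arrays lay above the δscr arrays. TKT, the transketolase of the pentose phosphate pathway, had 11.66, 11.67 and 11.59 with δ193, against 11.17, 11.15 and 11.12 with δscr (0.49, adjusted p = 4.13e-05). NQO1, a quinone reductase, had 11.54, 11.58 and 11.57 with δ193, against 11.23, 11.10 and 11.07 with δscr (0.43, adjusted p = 0.000382). EPHX1, microsomal epoxide hydrolase, rose by 0.48, AKR1C2 by 0.48, GSTM3, a glutathione transferase, by 0.51, SRXN1, sulfiredoxin, by 0.44 and GCLM, the modifier subunit of the enzyme that starts glutathione synthesis, by 0.35, with adjusted p values between 0.000493 for AKR1C2 and 0.0193 for GCLM. GCLC, the catalytic partner of GCLM, and HMOX1, heme oxygenase, did not share the direction, at -0.15 and -0.26, and neither was called. NFE2L2, which encodes NRF2, and KEAP1, which marks NRF2 for breakdown, were at 0.14 and 0.01 and were not called. The AKR1C genes are nearly identical in sequence, so their probe sets may read each other.

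Some glutathione transferases were higher as well, while their list as a whole moved little. Of 26 measured transferases, peroxidases and related glutathione genes, 5 were called higher and 1 lower, where 2.66% and 2.25% of all genes were. The median change of the 26 was 0.07, against 0.01 over all genes. Without the adjustment 5 higher and 3 lower genes had a p under 0.05 in limma, and 7 and 4 by the methods' t-test. GSTM1 had 9.63, 9.39 and 9.34 on the δ193 arrays, against 8.82, 8.89 and 8.50 on the δscr arrays (0.72, adjusted p = 0.0164), and GSTM4 rose by 0.58, GSTM2 by 0.56, GSTA4 by 0.49 and GSTP1 by 0.45. The member that fell was ANPEP, an aminopeptidase that cleaves the dipeptide left from glutathione, at -0.65 (adjusted p = 0.00518). The GSTM genes, with 4 of 6 called higher once GSTM3 is counted, are neighbours and close copies, so they are not independent observations. Without δ193 replicate 1 limma called none of these 6 and 1 higher gene of the 26, without δscr replicate 3 it called 1 in each, and without δ193 replicate 2 it called 3 higher genes of the 26. NRF2 binds antioxidant response elements with the core TGACNNNGC, which can hold the AP-1 letters inside it. This core was present on either strand in the promoter windows of 8 of the 23 NRF2 list genes that had one (34.8%), and of 18.3% of the 14239 measured genes with a window. Among the 8 called genes of the list with a window it was present in 2, EPHX1 and GCLM. Of the 21 transferase and peroxidase genes with a window 5 held the core (23.8%), GSTM1, GSTA4 and GSTP1 among the called ones. The windows of EPHX1 and GCLM and that of GSTP1, chosen because the core and the AP-1 letters overlap in it, are shown with the core in capitals.
GSTP1 chr11:67583720-67583780, plus strand: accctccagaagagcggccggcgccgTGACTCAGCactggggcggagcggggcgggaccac
EPHX1 chr1:225825250-225825310, plus strand: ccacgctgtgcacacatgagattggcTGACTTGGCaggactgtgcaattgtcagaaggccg
GCLM chr1:93909430-93909490, minus strand: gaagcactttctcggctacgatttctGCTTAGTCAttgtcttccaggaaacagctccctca
Other response elements of these genes may lie outside the windows searched.

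**Figure D3:**
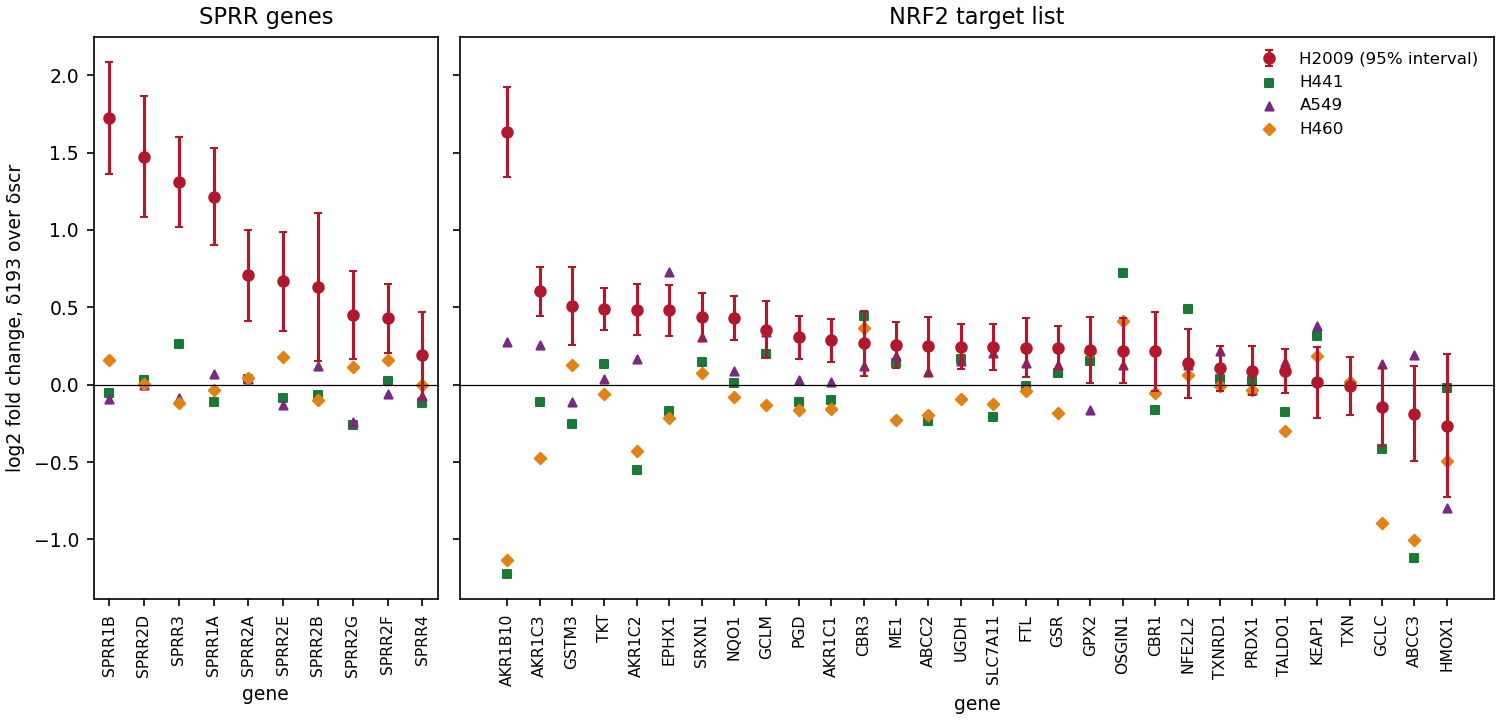
Log2 fold change, δ193 over δscr (vertical axis), of the 10 SPRR genes (left) and the 30 NRF2 list genes (right, both along the horizontal axis), with H2009 in red and its 95% confidence interval from limma, and the changes in H441, A549 and H460 as smaller symbols. SPRR1B and AKR1B10 are at 1.72 and 1.63 in H2009, while AKR1B10 is at -1.22 in H441, 0.28 in A549 and -1.13 in H460.

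Zinc finger genes were frequent among the decreases, a pattern that was chosen after the values were seen and so is given as counts, with no test. Most genes with the name ZNF and a number encode proteins with tandem C2H2 zinc fingers, many of them repressors that carry a KRAB domain and silence transposable elements, and large clusters of them lie on chromosome 19. Of 494 measured genes with such a name, 45 (9.11%) were called lower in δ193 cells, where 2.25% of all genes were, and 4 were called higher. Their median change was -0.11, and 68.8% of them lay below 0, against 45.9% of all genes. Of the 237 on chromosome 19, 31 were lower and 2 higher with a median of -0.18, of the 257 on other chromosomes 14 were lower and 2 higher with a median of -0.05, and of the 1072 other genes measured on chromosome 19, 22 were lower and 18 higher with a median of 0.01. Lower genes lay near each other on chromosome 19 but did not form unbroken runs. ZNF506, ZNF253, ZNF682, ZNF90 and ZNF826P were called in a stretch that also held ZNF93 (-0.45) and ZNF486 (-0.40), which were not. Further along, ZNF43, ZNF208 and ZNF676 were called and ZNF257 among them (-0.28) was not, and ZNF724, ZNF91 and ZNF681 were called and ZNF675 (-0.49) was not. ZNF826P, a pseudogene, had 5.42, 5.31 and 5.02 on the δ193 arrays, against 6.60, 6.20 and 6.47 on the δscr arrays (-1.17, adjusted p = 2.42e-06). ZNF43 had 5.50, 4.89 and 5.26 with δ193, against 6.31, 6.29 and 6.30 with δscr (-1.09, adjusted p = 7.19e-06). ZNF676 had 4.04, 3.17 and 4.24 with δ193, against 4.82, 4.49 and 4.93 with δscr (-0.93, adjusted p = 0.00144). Array replicate 2 of δ193 was the lowest of the 3 in ZNF43 and ZNF676. ZNF114, which lies apart from these genes, had 7.53, 7.23 and 7.41 with δ193, against 8.56, 8.66 and 8.56 with δscr (-1.20, adjusted p = 1.58e-05). The same 494 genes had 13 lower and 60 higher in H441, 4 lower and 1 higher in A549 and 9 lower and 2 higher in H460, whereas over the 18417 genes H441 had 1330 lower and 1306 higher, A549 475 lower and 377 higher, and H460 633 lower and 370 higher. Genes of 1 cluster share sequence, so their probe sets can read the same transcripts. The count of 45 was 22 without δ193 replicate 2 and 19 without δscr replicate 1, and the medians under these settings were -0.08 and -0.09.

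**Figure D4:**
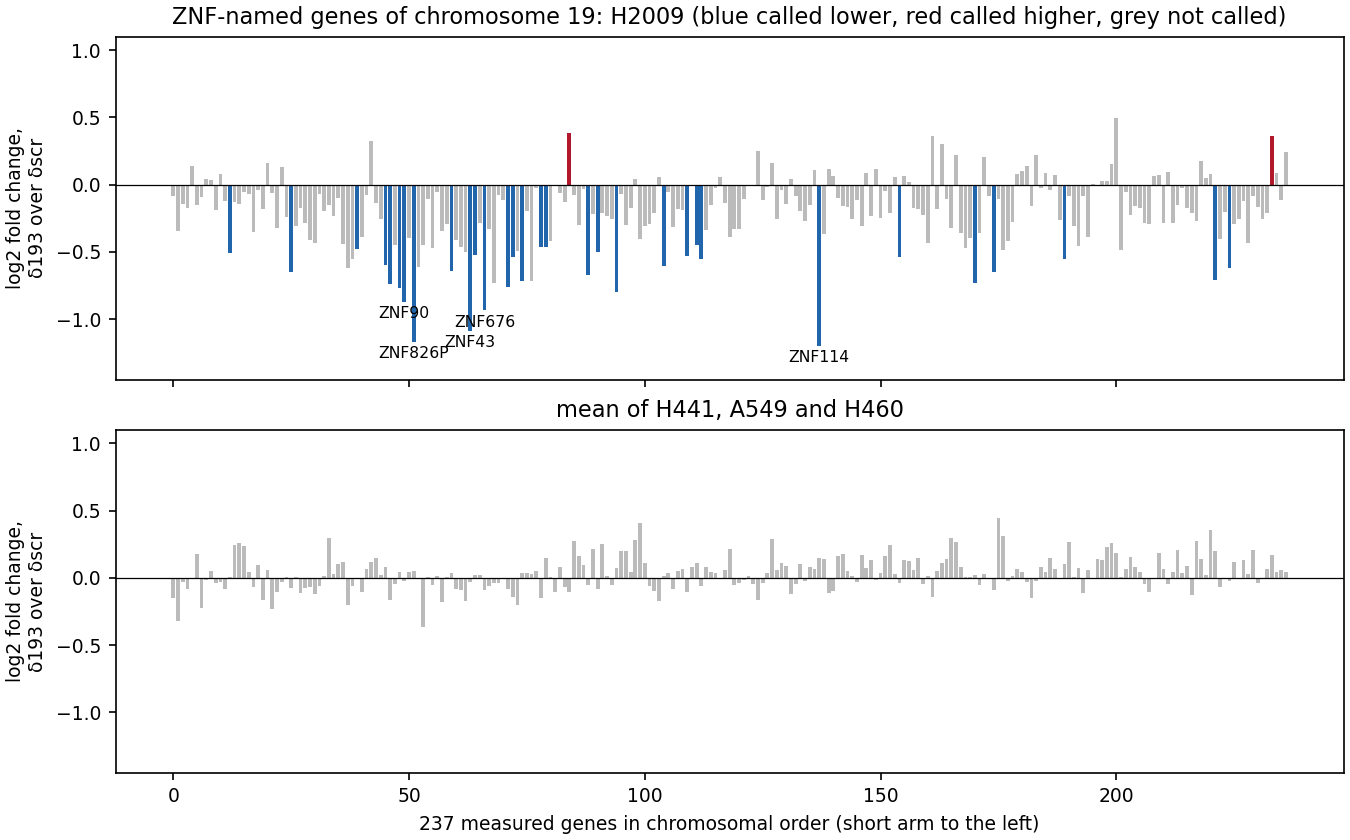
Log2 fold change, δ193 over δscr (vertical axes), of the 237 measured ZNF-named genes of chromosome 19 in chromosomal order (horizontal axis), in H2009 (top) and as the mean of H441, A549 and H460 (bottom). In H2009, 31 bars are blue for called lower and 2 red for called higher, and 80.6% of the bars point down; the deepest are ZNF114 at -1.20 and ZNF826P at -1.17.

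Genes of the extracellular matrix and its receptors moved in both directions. Integrins are the paired receptors that hold cells to the matrix, and 3 of 25 measured subunits were called lower and 1 higher, where 2.25% of all genes were lower and 2.66% higher. ITGA2, the α2 subunit that binds collagen, had 7.99, 8.05 and 7.99 on the δ193 arrays, against 8.93, 9.19 and 8.98 on the δscr arrays (-1.03, adjusted p = 0.00604). ITGB3, the β3 subunit, had 5.0, 4.90 and 4.91 with δ193, against 5.61, 5.74 and 5.69 with δscr (-0.74, adjusted p = 0.00876), and its partner ITGAV, the αV subunit, had 8.74, 8.77 and 8.69 with δ193, against 9.17, 9.26 and 9.06 with δscr (-0.43, adjusted p = 0.00238). In all 3 the δ193 arrays were the lower ones by more than their spread. ITGA4, the α4 subunit, rose by 0.57 (adjusted p = 0.00719). ITGA3, a laminin receptor subunit that the study names, was at -0.33 and was not called (adjusted p = 0.354), and the common β1 subunit ITGB1 was at -0.10 (adjusted p = 0.633). Of 30 measured laminins and matrix glycoproteins, 6 were higher and 3 lower. LAMA1 and LAMA2, laminin α chains of basement membrane, rose by 0.68 (adjusted p = 6.62e-05) and 0.57 (adjusted p = 0.00235), RELN, the secreted glycoprotein reelin, by 0.71 (adjusted p = 0.000184) and NID2, which links laminin to collagen IV, by 0.59 (adjusted p = 0.0226). AGRN, the heparan sulfate proteoglycan agrin, had 6.57, 6.45 and 6.54 with δ193, against 6.97, 7.03 and 7.04 with δscr (-0.49, adjusted p = 0.00103), and SPARC, a matrix-binding protein, fell by 0.48 (adjusted p = 0.00826). Without δscr replicate 3, 3 of the 30 were higher, without δscr replicate 1, 1 was lower, and without δ193 replicate 3 no integrin was higher.

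Of 34 measured collagen genes 4 were called, all higher, where 2.66% of all genes were, and 3 of them were chains of collagen IV, the collagen of basement membrane. COL4A2 had 5.90, 5.91 and 5.69 with δ193, against 5.30, 5.36 and 5.46 with δscr (0.46, adjusted p = 0.00235), and COL4A1, which is transcribed from the same promoter region in the other direction, had 5.09, 5.38 and 5.18 with δ193, against 4.75, 4.91 and 4.79 with δscr (0.40, adjusted p = 0.0111). COL4A6 and the fibrillar COL27A1 rose by 0.33 and 0.37 (adjusted p = 0.0489 and 0.0419). The count of 4 was 1 without δ193 replicate 2 or δscr replicate 1 and 2 without δ193 replicate 3 or δscr replicate 2, and it was 2 with array medians set equal and with the replicate block. Of 35 measured matrix proteases and inhibitors, MMP9 and PLAT, tissue plasminogen activator, were lower (-0.49 for PLAT, adjusted p = 0.00867), and TIMP3, MMP16, a membrane-bound metalloproteinase, and ADAM12, a surface protease, were higher (0.63 for MMP16 and 0.54 for ADAM12). These were 2 lower and 3 higher genes of the 35, where 2.25% and 2.66% of all genes were. FERMT2, kindlin-2, which activates integrins from inside the cell, was the 1 of 31 focal adhesion genes that fell (-0.57, adjusted p = 0.00037), while 4 rose, of which 1 was left without δ193 replicate 1 and 2 without each of the others except δ193 replicate 2. Without δscr replicate 1, 1 of the proteases and inhibitors was lower.

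SPRY4, ETV4 and DUSP4, from a list of genes of ERK output and feedback, were higher. They were the 3 calls among the 20 measured genes of this list, where 2.66% of all genes were called higher, and the median of the 20 was 0.10. The arrays do not measure the activity of ERK. In the immunoblots of the study, active ERK was lower in H2009 δ193 cells than in δscr cells, both adherent and in suspension. SPRY4, a feedback inhibitor of receptor kinase signaling, had 7.12, 6.92 and 7.17 on the δ193 arrays, against 6.29, 6.17 and 5.93 on the δscr arrays (0.94, adjusted p = 0.000781). ETV4, an ETS transcription factor downstream of ERK, had 7.85, 7.61 and 7.82 with δ193, against 7.11, 6.76 and 6.84 with δscr (0.86, adjusted p = 6.43e-05), and DUSP4, a phosphatase of ERK, had 6.63, 6.58 and 6.55 with δ193, against 5.94, 5.99 and 6.04 with δscr (0.60, adjusted p = 6.62e-05). DUSP6, the cytoplasmic ERK phosphatase, was at -0.23 and was not called (adjusted p = 0.733). Among 27 measured Ras genes and regulators, RASGRF2, an exchange factor for Ras and Rac, had 6.24, 5.56 and 6.02 with δ193, against 4.89, 5.34 and 4.83 with δscr (0.92, adjusted p = 0.00435), and RAP1A, a Ras relative that controls adhesion, fell by 0.50 (adjusted p = 0.00346). Of 57 measured receptor tyrosine kinases and growth factors, 3 were lower and 5 higher, where 2.25% and 2.66% of all genes were. The lower ones were the receptors MERTK, AXL and MET. MERTK fell by 0.85 (adjusted p = 0.00124), and AXL fell by 0.56 (adjusted p = 0.00421). MET, the receptor of hepatocyte growth factor, had 9.76, 9.83 and 9.80 with δ193, against 10.20, 10.22 and 10.16 with δscr (-0.40, adjusted p = 0.00379). The 5 that rose, 3 without δ193 replicate 1 or δscr replicate 1, included EPHA3, an ephrin receptor (0.87, adjusted p = 0.000396), and FGFR1, a fibroblast growth factor receptor (0.58, adjusted p = 0.00932).

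Both chains of the receptor for leukemia inhibitory factor were lower. IL6ST, which encodes gp130, had 8.58, 8.56 and 8.55 on the δ193 arrays, against 9.43, 9.30 and 9.24 on the δscr arrays (-0.76, adjusted p = 1.08e-05), and LIFR, its partner in that receptor, had 7.18, 7.30 and 7.16 with δ193, against 8.06, 8.26 and 8.10 with δscr (-0.93, adjusted p = 7.11e-05). These were the 2 calls among 27 measured genes of gp130 receptors and JAK-STAT signaling, where 4.91% of all genes were called, and the median of the 27 was 0.01. Of 43 measured genes of TGF-β and BMP signaling, 5 were lower and 3 higher, where 2.25% and 2.66% of all genes were. Of these 43, 3 were lower without δ193 replicate 2, δ193 replicate 3 or δscr replicate 1, and 1 was higher without δ193 replicate 1. SMAD5, which carries BMP signals, had 7.86, 7.83 and 8.01 with δ193, against 8.64, 8.69 and 8.57 with δscr (-0.73, adjusted p = 1.47e-06), and SMAD3, which carries TGF-β signals, fell by 0.35 (adjusted p = 0.00778), while SMAD2, its close relative, rose by 0.34 (adjusted p = 0.0355). Of 35 measured chemokines and cytokines, 3 were lower and 2 higher, where 2.25% and 2.66% of all genes were. In each direction 1 was left without any of δ193 replicates 2 and 3 and δscr replicates 2 and 3. Without δ193 replicate 1, 1 was higher. CCL28, a chemokine of mucosal epithelia, had 6.27, 5.55 and 5.55 with δ193, against 6.87, 6.68 and 6.83 with δscr (-1.0, adjusted p = 4.85e-05), and CXCL16, a chemokine made as a membrane protein, fell by 0.65 (adjusted p = 0.0411).

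Several lysosomal genes were lower. Of 56 measured, 6 were lower and 1 higher, where 2.25% and 2.66% of all genes were, and LAPTM5, described above, was the largest. GALC, the enzyme that removes galactose from galactosylceramide, had 5.13, 5.20 and 4.84 with δ193, against 6.07, 6.20 and 6.14 with δscr (-1.08, adjusted p = 2.13e-07). ASAH1, acid ceramidase, had 8.0, 7.95 and 7.84 with δ193, against 8.59, 8.56 and 8.52 with δscr (-0.63, adjusted p = 0.000143). These δ193 arrays all lay well below the lowest δscr array. CTSV and TPP1, lysosomal proteases, fell by 0.61 each (adjusted p = 0.00874 and 0.00163), and NEU1, a sialidase, by 0.33 (adjusted p = 0.0495), while SLC17A5, which exports sialic acid from lysosomes, rose by 0.36 (adjusted p = 0.0419). The median of the 56 genes was -0.03. SGMS1 and SGMS2, which turn ceramide into sphingomyelin, fell by 0.84 (adjusted p = 0.000214) and 0.80 (adjusted p = 8.15e-05) and were the 2 calls among 33 ceramide and sphingolipid enzymes, a share near the 4.91% of all genes, with a median of -0.01.

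Some regulators of epithelial identity were lower, while the main epithelial genes were not called. ELF3, an ETS factor of epithelia, had 6.19, 6.27 and 6.05 on the δ193 arrays, against 7.28, 7.06 and 6.97 on the δscr arrays (-0.93, adjusted p = 0.000347), and GRHL2, a factor that maintains epithelial junction genes, had 6.96, 7.01 and 6.72 with δ193, against 7.51, 7.55 and 7.38 with δscr (-0.58, adjusted p = 0.000639). ZEB1, a repressor of epithelial genes, had 7.23, 7.19 and 7.26 with δ193, against 6.73, 6.58 and 6.57 with δscr (0.60, adjusted p = 8.47e-05). MARVELD2, a protein of junctions at the corners of cells, fell by 0.44 (adjusted p = 0.0478), and ESRP2, an epithelial splicing regulator from another list, fell by 0.57 (adjusted p = 0.0279). In contrast EHF, an ETS factor related to ELF3, rose by 0.48 (adjusted p = 0.0156), and EPCAM and CDH1, which encodes E-cadherin, were at -0.34 and -0.29 and were not called (adjusted p = 0.136 and 0.639). In all, 3 of 27 measured epithelial markers were lower and 1 higher, and 1 of 23 mesenchymal markers was lower and 2 higher. Secreted and mucin-type genes included 4 higher and 1 lower of 31. Over all genes tested, 2.25% were called lower and 2.66% higher. MUC13, a transmembrane mucin, had 6.76, 6.46 and 6.53 with δ193, against 5.69, 5.39 and 5.57 with δscr (1.03, adjusted p = 1.04e-05), and AGR2, which helps to fold mucins, rose by 0.79 (adjusted p = 0.00842). Among the 21 immune markers LAPTM5, CD79A and CD53 were lower and LCP1 was higher; CD53, a leukocyte tetraspanin, had 4.65, 4.31 and 4.20 with δ193, against 5.05, 5.14 and 4.69 with δscr (-0.57, adjusted p = 0.00435). The part of other cell types in these 4 changes was not tested, and PTPRC lay at the bottom of the scale in both groups as given above. LUM, lumican, was the 1 of 16 fibroblast and endothelial markers that was called, with 4.10 in δ193 cells and 4.77 in δscr cells.

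Some metabolic genes of amino acid and lipid supply were higher. Of 36 measured ATF4 targets and amino acid genes, 4 were called, all higher, where 2.66% of all genes were, with a median of 0.21, and 2 were called without δ193 replicate 1. PHGDH, the first enzyme of serine synthesis, had 10.53, 10.58 and 10.45 with δ193, against 9.94, 9.98 and 9.88 with δscr (0.59, adjusted p = 0.00704), SLC1A3, a glutamate transporter, rose by 1.10 (adjusted p = 6.65e-05), GLUL, glutamine synthetase, rose by 0.56 (adjusted p = 0.0467) and SLC1A5, a glutamine transporter, rose by 0.36 (adjusted p = 0.00609). Of 26 measured genes of cholesterol and fatty acid synthesis 3 were called, all higher, and 1 without δ193 replicate 1, δ193 replicate 2 or δscr replicate 1, with a median of 0.03. INSIG1, which senses sterols, rose by 0.72 (adjusted p = 0.00344), FASN, fatty acid synthase, by 0.45 (adjusted p = 0.0139) and SREBF1, the transcription factor that drives FASN, by 0.34 (adjusted p = 0.0382). Of 44 measured interferon-stimulated genes, 3 were lower and 1 higher, where 2.25% and 2.66% of all genes were. Without δ193 replicate 1, 5 were lower. HERC5, the ligase for ISG15, fell by 0.90 (adjusted p = 0.000164) and SAMD9, an antiviral factor, by 0.82 (adjusted p = 0.00409), while IFI44L rose by 0.61 (adjusted p = 0.0413).

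A further 2 groups were picked out after the values were seen and are given as values. Of 17 measured cyclic nucleotide phosphodiesterases, which break down cAMP and cGMP, 5 were called, all higher, where 2.66% of all genes were. PDE3A had 6.05, 6.04 and 6.04 on the δ193 arrays, against 4.91, 5.35 and 4.95 on the δscr arrays (0.97, adjusted p = 7.19e-06), and PDE10A had 6.86, 6.96 and 6.95 with δ193, against 6.13, 5.94 and 5.86 with δscr (0.95, adjusted p = 1.07e-06). PDE3B rose by 0.69 (adjusted p = 0.00595), PDE7B by 0.67 (adjusted p = 0.00357) and PDE4B by 0.50 (adjusted p = 0.0132). The median of the 17 was 0.07. Of 19 measured clock genes, 3 were higher and 1 lower, where 2.66% and 2.25% of all genes were. BMAL1 and NPAS2, which pair as activators in the circadian clock, had means of 6.19 and 9.35 in δ193 cells, against 5.62 and 8.81 in δscr cells (0.57 and 0.54, adjusted p = 0.00474 and 0.00308). CIART, which represses BMAL1 complexes, had 5.25, 4.77 and 5.06 with δ193, against 6.18, 6.21 and 5.74 with δscr (-1.02, adjusted p = 2.09e-05). The time of day at which cultures were collected is not given in the sources used here.

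Limma called no gene in 6 of the lists. Among 45 measured genes of the cell cycle and DNA replication, 3 had an unadjusted p under 0.05 below 0 and 4 above it, against 9 and 11 by the methods' t-test, and the changes ran from -0.37 to 0.39. Among 17 BCL2 family genes, which control the mitochondrial path of apoptosis, the same counts were 0 and 2 for limma and 1 and 2 for the t-test, with changes from -0.21 to 0.38. Limma gave 2 and 1 among 20 NF-κB subunits and feedback genes, 1 and 0 among 9 diacylglycerol kinases, 3 and 1 among 36 potassium and sodium channels and 1 and 1 among 20 airway and alveolar markers, and the t-test 4 and 1, 1 and 2, 1 and 0, and 1 and 0. Of the diacylglycerol kinases, 1 was called lower by the methods' t-test without adjustment, as the study applied it, and with the 6 H2009 arrays alone. The same count was found without the H441 arrays, with array weights and with array medians set equal. The study names DGKA, of this family, as lower in both K-ras classes. Of 22 measured p53 targets 1 was called, and of 21 genes of the unfolded protein response 1, shares near the 4.91% of all genes.

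The change in H2009 was then set against the mean change in H441, A549 and H460, whose arrays share no control with it. The difference passed the same thresholds for 752 genes, 4.08% of those tested. H2009 lay below the other lines for 258 (1.4%) and above them for 494 (2.68%). With the array medians set equal these counts were 323 and 391, so the size of this imbalance depended on how the arrays were centred. Of the 490 genes called higher in H2009, 259 also passed this test in the same direction, and 144 of the 414 called lower did. Of the higher genes 229 were called in no other line, and 99 were called in the opposite direction in at least 1. Of the lower genes 217 were called in no other line and 21 in the opposite direction. As background, the lower calls among all 18417 genes numbered 1330 for H441, 475 for A549 and 633 for H460. The higher calls numbered 1306, 377 and 370, in the same order. How many opposite calls would arise from these shares alone was not tested. The SPRR genes were above the other lines in 7 of 10 cases, and the largest difference of the family was 1.72 in SPRR1B (adjusted p = 1.26e-05). Of the NRF2 targets, 9 of 30 lay above the other lines, 7 of them among the 9 called in H2009. AKR1B10 differed most, by 2.32 (adjusted p = 1.38e-08), as its change of 1.63 stood beside -1.22 for H441 cells, 0.28 for A549 cells and -1.13 for H460 cells. Of the ZNF-named genes, 36 of 494 were below and 5 above.

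Between the lines of the K-ras dependent pair, the difference was tested as well. The difference between H2009 and H441 alone was 1.77 for SPRR1B (adjusted p = 6.8e-05), 2.85 for AKR1B10 (adjusted p = 4.99e-09) and -1.59 for MMP9 (adjusted p = 2.74e-05). For TRPA1 it was 0.03 (standard error 0.27) and for RAB23 -0.10 (standard error 0.16), with adjusted p values of 0.97 and 0.78, so no difference was detected, which does not show that the changes are equal. NDST4, an enzyme of heparan sulfate, and RORB, an orphan nuclear receptor, rose in H2009 by 1.04 and 0.80, while they were at -1.07 and -0.99 in H441, at 0.35 and 0.01 in A549, where neither was called, and at -2.63 and -1.87 in H460. MMP9 was at -0.18 in H441 and 0.23 in A549 and in H460, and its difference from the mean of the 3 lines was -1.86 (adjusted p = 3.43e-07). MT1X, a metallothionein that binds zinc and copper, fell by 0.61 in H2009, where it had 9.62, 9.33 and 9.43 with δ193, against 10.26, 9.84 and 10.10 with δscr, and was at 0.77 in H441, 0.38 in A549, where it was not called, and 0.99 in H460.

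**Figure D5:**
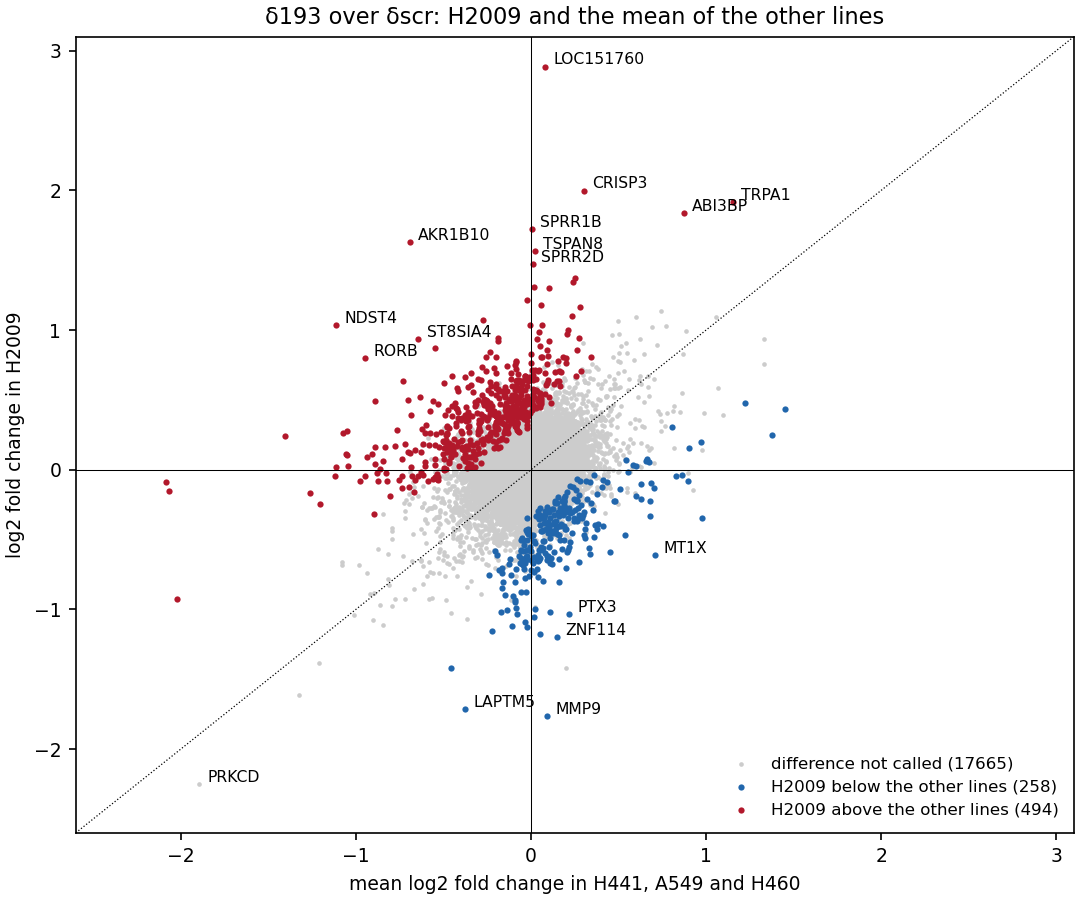
Each point is a gene, placed by its mean log2 fold change (δ193 over δscr) in H441, A549 and H460 (horizontal axis) and by its log2 fold change in H2009 (vertical axis). Red points are the 494 genes whose H2009 change was above that of the other lines and blue points the 258 below; on the dotted line the changes are equal, and PRKCD lies near it while LOC151760 (2.89 in H2009) and MMP9 (-1.77) lie off it.

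Part of the H2009 response was shared by all lines, mostly on the side of the decreases. Of the 414 lower genes, 98 were also called lower in 1 other line, 53 in 2 and 29 in all 3. Of the 490 higher genes, 135 were called higher in 1 other line, 41 in 2 and 3 in all 3. Among all 18417 genes, the lower calls were 1330 for H441, 475 for A549 and 633 for H460. The higher calls were 1306, 377 and 370, in the same order. How much of the overlap would arise from these shares alone was not tested. Besides PRKCD, RAB23, ADA, GALC, LIFR, IL6ST and SMAD5, the 29 genes included TMEM245, a membrane protein with 8.51, 8.51 and 8.53 on the δ193 arrays, against 9.49, 9.68 and 9.50 on the δscr arrays (-1.04, adjusted p = 1.89e-07), and RBFOX2, a splicing regulator (-0.97, adjusted p = 1.67e-07). The 3 higher genes were SPRY4, PALLD, an actin-binding protein (0.64), and CABYR, a calcium-binding protein of sperm tails (0.61). RAB23 and ADA, given above, changed in each line, from -0.99 to -1.62 for RAB23 and from -1.10 to -1.38 for ADA.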

How the data were processed

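Total RNA of H2009, H441, A549 and H460 cells with δ193 or δscr was profiled on 24 Affymetrix Human Gene 1.0 ST arrays, 3 per group. The authors deposited log2 values per transcript cluster, normalized by the robust multi-array average (RMA) method in Affymetrix Power Tools, which corrects background and quantile-normalizes the arrays. Scanner intensities were not used here, so signal over background is not known for single genes; the number of arrays limits the precision. Of 33252 transcript clusters, 19460 had 1 gene symbol in the platform annotation, 1754 had several and 12038 had none. For the 18417 genes with a symbol, the cluster with the highest mean was kept (769 genes had several).

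All 24 arrays were fitted with limma 3.58.1 in R 4.3.3, with 1 coefficient per group, so that the 8 groups share an estimate of the spread. The δ193 minus δscr difference in H2009, and this difference minus the mean of the other 3 lines, were tested with Benjamini-Hochberg adjustment over all genes. The script was tested on simulated data. Named genes were PRKCD, the 20 largest increases and decreases without overlap, the first 2 genes and up to 6 called members of each of 49 lists, and genes the study names, from which the text takes those it describes. Named as well were the 10 largest differences from the other lines in each direction, among genes called in H2009 and called for that difference. The members and lists were chosen with earlier results of these data known. The SPRR, ZNF, GSTM, late cornified envelope, phosphodiesterase and clock groups were formed after values were seen. Promoter sequences are from RefSeq, GRCh38.p14; the motif letters were searched on both strands. The methods' t-test, other normalizations, filters, spread models, thresholds, a replicate block and the removal of single arrays were tried as alternatives. The biological replicates are not described further in the sources used here.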

Additional observations from a re-analysis of the deposited data

Results flagged for a closer look

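The change in H2009 cells was set against the mean change in H441, A549 and H460 cells. Only genes called in H2009 and also called by limma's test of this difference were ranked, by its size. The 20 genes given here had the largest differences among them, 10 in each direction. H2009 lay below the other lines by -1.86 in MMP9, -1.35 in ZNF114, -1.34 in LAPTM5, -1.32 in MT1X, -1.25 in PTX3, -1.23 in ZNF826P, -1.13 in CIART, -1.11 in H2BC3, -1.08 in HOOK1 and -1.05 in ZNF43 on the log2 scale, with adjusted p values between 3.43e-07 for MMP9 and 0.00204 for PTX3. It lay above them by 1.42 in EPHA3, 1.47 in SPRR2D, 1.54 in TSPAN8, 1.58 in ST8SIA4, 1.70 in CRISP3, 1.72 in SPRR1B, 1.75 in RORB, 2.15 in NDST4, 2.32 in AKR1B10 and 2.81 in LOC151760, with adjusted p values between 1.38e-08 for AKR1B10 and 0.000204 for SPRR2D. In SPRR1B, SPRR2D, TSPAN8 and LOC151760 the mean change of the other lines was near 0, from 0.01 in SPRR1B to 0.08 in LOC151760. In EPHA3, ST8SIA4, RORB, NDST4 and AKR1B10 it was negative, from -0.55 in EPHA3 to -1.11 in NDST4, the opposite sign to H2009, although A549 alone was above 0 in all of them but EPHA3, from 0.01 in RORB to 0.61 in ST8SIA4. ST8SIA4, which adds polysialic acid to surface proteins, rose by 0.93 in H2009, against -1.58 for H441 cells, 0.61 for A549 cells and -0.96 for H460 cells. The difference is against a mean of 3 lines, and the variance of residuals was 2.49 times as large in H441 as in H2009.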

How the results depend on the processing

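PRKCD kept its direction and its call under all 21 alternatives. The 414 lower and 490 higher genes numbered 589 and 742 by the methods' t-test without adjustment and 85 and 108 with it, 159 and 172 at a fold of at least 1.5, and 219 and 269 at an adjusted p under 0.01. They numbered 609 and 722 without the H441 arrays, 609 and 718 with array weights, and 402 and 494 with the 6 H2009 arrays alone. Leaving out 1 of the 6 H2009 arrays gave 220 to 354 lower genes, lowest without δscr replicate 1, and 321 to 366 higher genes, lowest without δ193 replicate 1; between 543 and 617 of the 904 called genes kept their call. The 258 genes below and 494 above the other lines numbered 537 and 828 without the H441 arrays, 535 and 822 with array weights, 128 and 287 at a fold of at least 1.5 and 90 and 274 at an adjusted p under 0.01. With array medians set equal they numbered 323 and 391. Without 1 array they ran from 125 to 230 and from 340 to 401, with the lowest counts below without δscr replicate 1 (125), δ193 replicate 2 (127) and δ193 replicate 3 (169). The cause of these shifts was not tested, other than that fewer arrays enter. With the replicate number as a block the counts were 418 and 486, and 791 of the 904 called genes kept their call. On the second principal component, with 21.9% of the variance, replicate 1 was at 14.6 in δ193 and 11.7 in δscr. Replicate 2 was at -10.4 and -6.56 there, and replicate 3 at 1.2 and -10.5. Replicates 1 and 2 thus lay on the same side in both groups, and replicate 3 did not. Deviations of same-numbered arrays correlated at 0.28, 0.16 and 0.095, 1 of them under 0.1. No source says whether a number marks a shared culture or day, so the main fit did not treat the arrays as pairs. Whether they were paired was not tested.

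Of 143 called genes named with PRKCD, 106 kept their call whichever array was left out. The other 37 lost it without at least 1 array. COL4A6, CXCL16, GLUL, NEU1 and SREBF1 lost it without any of the 6, ESRP2, GCLM, GSTA4, IFI44L, MARVELD2, MT1X, MTND2P28, SLC17A5, SMAD2, SOX2 and ZNF724 without any of 5, and COL27A1, GSTM2, NID2 and ZNF91 without any of 4. EHF, FASN, GSTM3, SPRR2F, COL4A1, CTSV, GSTM1, GSTM4, PDE4B, SPRR2E, FGFR1, ITGA4, PLAT, SLC1A5, SPARC, ZNF208 and ZNF506 lost it without 1 to 3 of them. The change of KEAP1, 0.01, was -0.0075 with array weights, -0.024 with array medians set equal and -0.028 to 0.050 without 1 array. With array medians set equal 7 of 10 SPRR genes and 8 of 30 NRF2 targets were called higher and 59 ZNF-named genes lower.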
